A study of Mus musculus with 24 samples.

Results

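Transcripts of 10 genes of glucose uptake, glycolysis and glycogen metabolism were followed in mouse brain: the glucose transporters Slc2a1 and Slc2a3, the hexokinases Hk1 and Hk2, aldolase A (Aldoa), lactate dehydrogenase A (Ldha), the glycogen phosphorylases Pygb and Pygm, glycogen synthase 1 (Gys1) and the glycogen targeting subunit Ppp1r3c. They were measured by all probe sets to which the probe-to-gene table gave 1 of these symbols and no other, 22 of the 45037 probe sets tested. A probe set is a group of short oligonucleotides that together report the level of 1 transcript region, and its ID is printed because probe sets of 1 gene often differed. Slc2a1 had 3 probe sets, Slc2a3 had 4, Hk1 had 2, Aldoa had 5, Gys1 and Ppp1r3c had 2 each, and the other genes had 1.

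The arrays came from male mice of 12 weeks (± 1 week), killed 6 h after light onset (ZT6), having been kept awake by gentle handling for those 6 h or left undisturbed. Homer1a is a short splice form of a scaffold protein of synapses that neuronal activity induces, and RNA of the cells expressing it was recovered by mRNA tagging: brains were perfused with formaldehyde, and polyadenylated RNA bound to a FLAG-tagged protein was pulled down on anti-FLAG beads and amplified. There were 6 pull-down arrays after sleep deprivation and 6 pull-down controls, 4 arrays of the supernatants that pull-downs left, and whole-brain total RNA from unfixed tissue in 4 sleep-deprived and 4 control mice. Of the supernatants, numbers 15 and 14 are titled sleep-deprived and number 16 control. Number 13 is called sleep-deprived in its title and control in its source field, so all 4 formed 1 group. That group mixes sleep-deprived and control mice, and its values are listed in the order 15, 14, 16 and 13. The strain, the transgene and its promoter are not given in the sources used here. Values are log2 intensities as the authors deposited them, groups are given as mean ± SD, and differences as log2 units ± SE from limma with Benjamini-Hochberg adjusted p over all probe sets, called under 0.05. The design counts 10 sleep-deprived and 10 undisturbed mice, as many as there are pull-down and whole-brain arrays, but no label gives the mouse of a supernatant, and p-values measure the spread between these arrays.

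Neurons and glia depend on glucose from blood. Slc2a1 carries it across the endothelium and into astrocytes, and Slc2a3 is the main neuronal transporter. Hexokinase traps it as glucose 6-phosphate, aldolase splits fructose bisphosphate further down glycolysis, and lactate dehydrogenase interconverts pyruvate and lactate. Brain glycogen lies mostly in astrocytes. Glycogen synthase builds it, phosphorylases break it down, and targeting subunits such as Ppp1r3c (protein targeting to glycogen) bring protein phosphatase 1 to the particle.

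The pull-down arrays differed from the others across all probe sets. Array medians were 4.37 to 5.70 in pull-down, 6.09 to 6.21 in supernatant and 6.04 to 6.24 in whole brain. The 18S ribosomal control read 6.83 to 11.1, 14.2 to 14.4 and 13.8 to 13.9, and the 3′ minus 5′ difference of Gapdh was 3.29 to 5.96, 2.31 to 2.59 and 2.49 to 2.95 in the same order. Pull-down SD 1, the sleep-deprived pull-down with the most 18S signal, was the highest of 12 pull-down arrays at 10 of the 22 probe sets, and pull-down control 11 was the lowest at 8. The part of these array-wide differences in the results was not tested beyond the rescaled values given beside them.

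The promoter windows of Slc2a1 and Ldha are shown. Slc2a1 was chosen because it held the largest sleep deprivation differences of the members in whole brain. Ldha was chosen as the member whose levels followed Slc2a1 1434773_a_at most closely over the 24 arrays. Its r was 0.80, a description of arrays that share the extract differences above, and 343 genes had a higher r. Slc2a1 and Ldha are textbook targets of hypoxia-inducible factor, whose response element has the core ACGTG. The RefSeq windows (GRCm38.p6) are the 250 bases before the start, chr4:119108495-119108744 for Slc2a1 and chr7:46845554-46845803 for Ldha, both on the plus strand. Capitals mark ACGTG on either strand.
Slc2a1: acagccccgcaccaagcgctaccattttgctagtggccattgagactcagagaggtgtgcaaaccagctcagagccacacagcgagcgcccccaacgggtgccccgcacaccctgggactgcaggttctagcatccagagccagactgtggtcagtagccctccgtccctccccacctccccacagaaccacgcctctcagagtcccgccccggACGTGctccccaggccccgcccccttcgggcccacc
Ldha: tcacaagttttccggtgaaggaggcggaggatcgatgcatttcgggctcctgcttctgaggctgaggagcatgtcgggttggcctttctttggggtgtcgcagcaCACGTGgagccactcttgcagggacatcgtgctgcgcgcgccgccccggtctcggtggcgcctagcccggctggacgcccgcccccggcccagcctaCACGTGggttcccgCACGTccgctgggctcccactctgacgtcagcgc
The Slc2a1 window held 1 match, 36 bases before the start. The Ldha window held 5, of which those at 145 and 144 bases and at 48 and 47 bases are the overlapping strands of CACGTG, and the last lay at 34 bases. Of all 32851 windows of this length, 16.6% held the motif, and of the 13 windows of the members 8 did, for 7 of the 9 members with a window. A match is a description of the letters, not of binding.

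The comparison of pull-down with whole brain and supernatant addresses which RNAs are richer in Homer1a-expressing cells. No member rose in pull-down (0 of 22, where 8.06% of all probe sets rose) and 17 fell (76.3% of all fell). The median difference of the members was −1.35 (range −4.95 to 0.24), against −0.78 over all probe sets. Against supernatant, 6 of 22 rose (11.2% of all) and 14 fell (67.4% of all), and their median was also below 0, against −0.85 over all probe sets. No member was enriched over both references (7.46% of all probe sets were), and 14 were depleted against both (65.8%). The counts changed with the scale of the arrays. After quantile normalization 4 members rose and 13 fell against whole brain, where 32.3% of all probe sets rose and 26.2% fell. After centring each array on its median 7 rose and 7 fell, where 52.0% of all rose and 18.3% fell. All probe sets moved from a median of −0.78 to 0.09 and 0.37 by these scalings. Against supernatant, 8 rose and 11 fell after quantile normalization (27.2% and 27.6% of all), and 8 rose and 6 fell after centring (44.1% and 18.8%), with medians over all probe sets of 0.02 and 0.32. The 7 probe sets lower than in whole brain on all 3 scales were Slc2a1 1426600_at, Slc2a3 1421924_at and 1427770_a_at, Hk1 1420901_a_at, Aldoa 1433604_x_at, Pygb 1433504_at and Pygm 1448602_at. Of these, both Slc2a3 probe sets and Pygm had low signal, and the filter on low levels left them out. Whole brain read 6.08 to 6.63, 6.31 to 6.81 and 6.01 to 6.73 there, near its array medians of 6.04 to 6.24. The part of low signal in their differences was not tested. Groups did not overlap at 9 members lower than whole brain (27.5% of all probe sets) and 0 higher (3.35%), and at 9 lower (32.1%) and 2 higher (6.39%) than supernatant. The 6 that were higher than in supernatant as deposited were higher on all 3 scales.

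**Figure D1:**
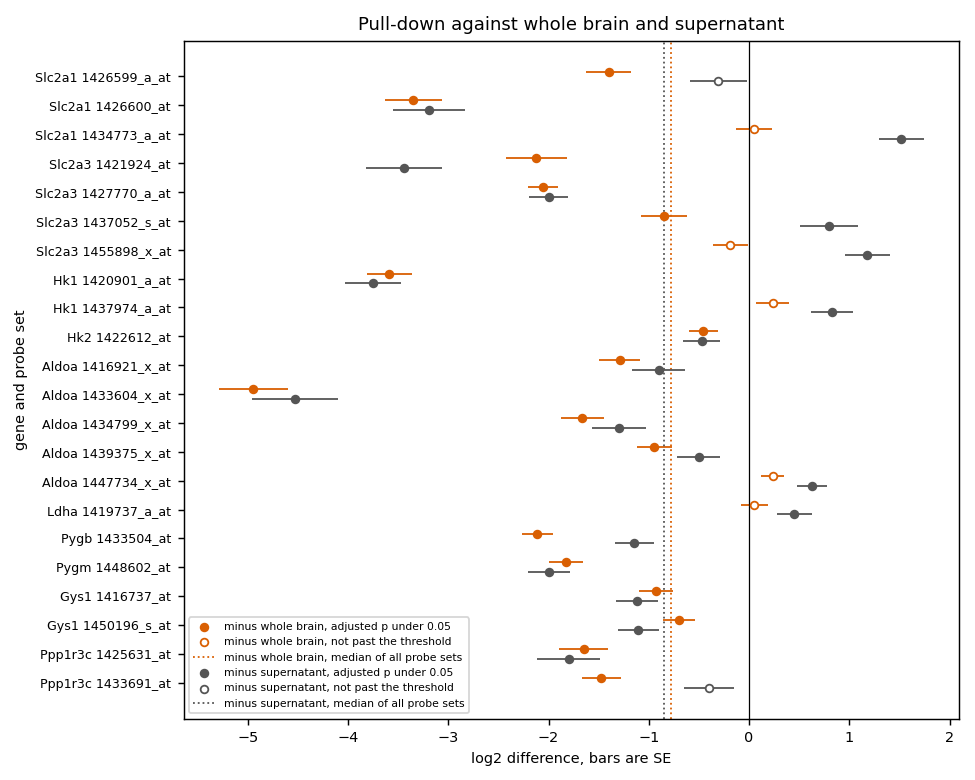
Log2 difference of pull-down from whole brain (n = 12 and 8 arrays) and from supernatant (n = 12 and 4) at each of the 22 probe sets, with the SE from limma. Differences range from −4.95 to 0.24 against whole brain and reach 1.52 against supernatant, and probe sets of Slc2a1, Hk1 and Aldoa lie far apart.

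Slc2a1, the transporter of the blood-brain barrier and of astrocytes, gave 3 different answers in the pull-down. Probe set 1426600_at fell against whole brain by 3.35 ± 0.28 (adjusted p = 8.2e-11) and differed from supernatant by −3.19 ± 0.36 (1.7e-08). It read 7.26, 8.13 and 10.37 (lowest, median, highest) in sleep-deprived pull-down and 7.34, 7.52 and 8.98 in control pull-down, against 10.87 to 11.96 in the 4 supernatants and 10.95 to 11.87 in whole brain. Every pull-down array was below every other array. Probe set 1426599_a_at was lower than whole brain with a difference of −1.40 ± 0.23 (adjusted p = 3.6e-06; −0.24 and not called after centring) and read −0.31 ± 0.28 against supernatant (0.32). Probe set 1434773_a_at read 0.05 ± 0.18 against whole brain (adjusted p = 0.79; 1.21 and called after centring) and was higher than in supernatant by 1.52 ± 0.23 (1.4e-06). Here supernatants 15, 14, 16 and 13 stood low, at 9.83, 9.37, 8.74 and 8.47. Pull-down read 9.52 to 11.06, so that the ranges overlapped. Whole brain exceeded supernatant at this probe set by 1.47 ± 0.24 (adjusted p = 0.00013). At 1426599_a_at it did so by 1.09 ± 0.30 (0.016), a call lost without supernatant 16 (0.98, adjusted p = 0.0722) or 13 (0.94, 0.0977) and after centring (1.11, 0.0933).

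Slc2a3, the transporter of neurons, split in the same manner over its 4 probe sets. Probe set 1421924_at was at 3.21, 4.12 and 6.25 in sleep-deprived and 3.55, 3.92 and 5.97 in control pull-down (lowest, median, highest), at 8.35, 7.59, 7.28 and 7.62 in supernatants 15, 14, 16 and 13, and at 6.08 to 6.63 in whole brain. The supernatants were highest, and pull-down overlapped whole brain through its highest array. The difference of pull-down was −2.12 ± 0.30 from whole brain (adjusted p = 5.1e-07) and −3.44 ± 0.38 from supernatant (1.2e-08). Whole brain was lower than supernatant here with a difference of −1.32 ± 0.40 (adjusted p = 0.031), the 1 member called lower in that comparison, and the call was lost without supernatant 15, 14 or 13, sleep-deprived brain 18 or control brain 22 (adjusted p up to 0.145, without supernatant 15) and after centring (−1.30, 0.0536). Probe set 1427770_a_at fell by 2.06 ± 0.15 against whole brain (8.6e-12) and was also lower than in supernatant (1.4e-09). The other probe sets can share sequence with further transcripts by their _s_at and _x_at design and were above supernatant in pull-down. The difference was 0.80 ± 0.29 at 1437052_s_at (adjusted p = 0.015; 0.63 and 0.0830 without supernatant 13) and 1.18 ± 0.23 at 1455898_x_at (4.3e-05). Against whole brain, 1437052_s_at was lower with a difference of −0.85 ± 0.23 (adjusted p = 0.0015) as deposited and higher by 0.30, not called, after centring. Probe set 1455898_x_at read −0.19 ± 0.18 (0.33) as deposited and was called at 0.97 after centring.

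**Figure D2:**
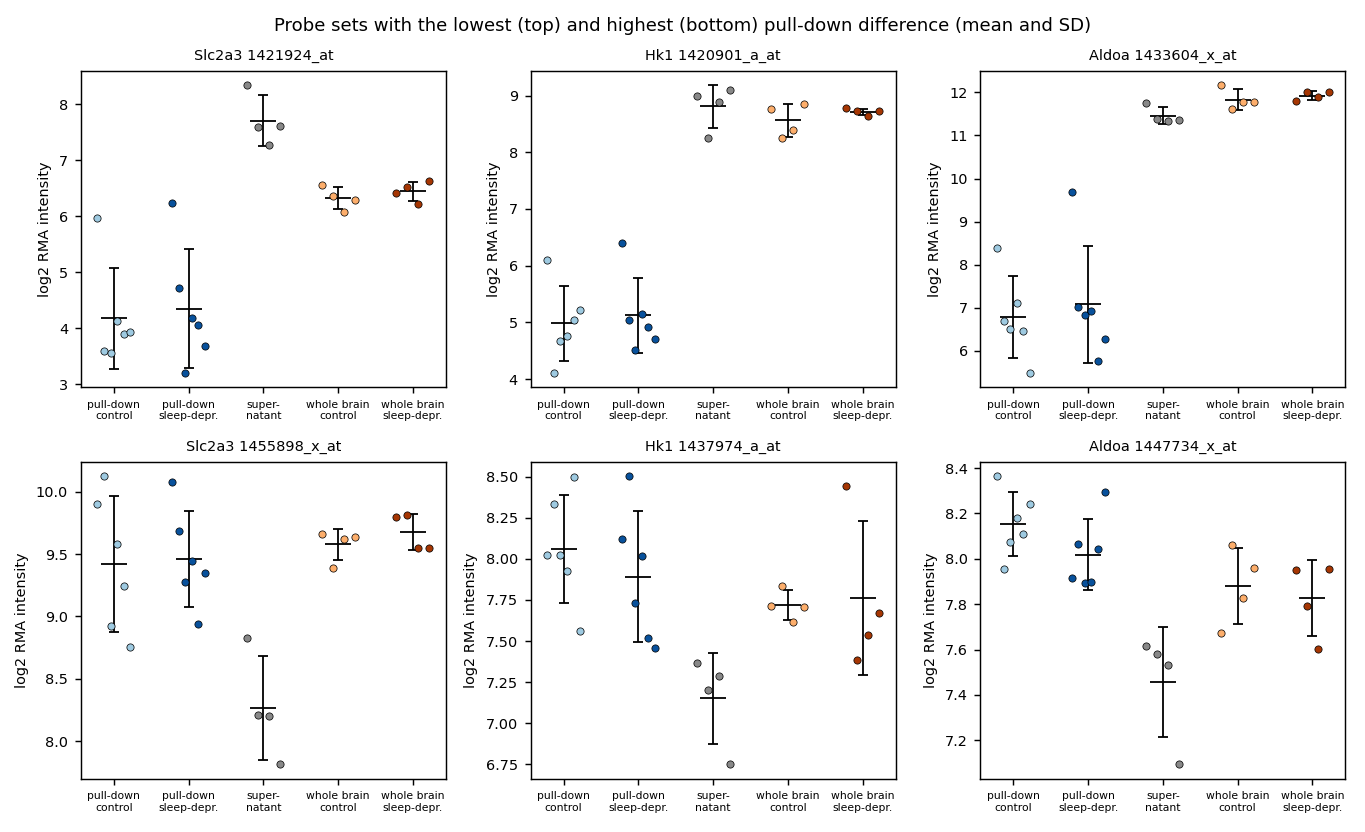
Log2 level on each of the 24 arrays, by group, at the probe sets of Slc2a3, Hk1 and Aldoa with the lowest and the highest pull-down difference from whole brain. Points are arrays, with the group mean and SD. At Hk1 1420901_a_at the 12 pull-down arrays sit between 4.11 and 6.39, below all others, and at 1437974_a_at they sit between 7.46 and 8.50, overlapping whole brain at 7.39 to 8.44.

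Hk1, the hexokinase of most brain cells, fell at 1420901_a_at by 3.59 ± 0.22 against whole brain (12.0-fold, adjusted p = 3.1e-13) and differed from supernatant by −3.75 ± 0.28 (1.7e-11). Levels there were 4.11 to 6.39 in pull-down, 8.99, 8.26, 8.88 and 9.10 in supernatants 15, 14, 16 and 13, and 8.25 to 8.86 in whole brain, with no overlap of pull-down and the rest. At 1437974_a_at the same gene read 0.24 ± 0.16 above whole brain (adjusted p = 0.18) and was higher than in supernatant by 0.83 ± 0.21 (0.00088). After quantile normalization this probe set was called higher than whole brain too (1.00), and after centring it was (1.39). Hk2, the isoform that insulin and hypoxia regulate, averaged 6.27 ± 0.35 in sleep-deprived pull-down, 6.68 ± 0.23 in control pull-down (n = 6 each), and 6.85 to 7.01 in the other group means. Pull-down was below whole brain with a difference of −0.46 ± 0.15 (adjusted p = 0.0058) and below supernatant with a difference of −0.47 ± 0.18 (0.023), but Hk2 was called higher after quantile normalization (0.66 and 0.60) and centring (0.70 and 0.70). The call against supernatant was also lost without supernatant 16 (−0.43, adjusted p = 0.0676) or 13 (−0.33, 0.135).

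Aldoa showed the widest spread among members. At 1433604_x_at pull-down was below whole brain with a difference of −4.95 ± 0.34 (adjusted p = 2.4e-12) and below supernatant with a difference of −4.53 ± 0.43 (1.1e-09). Only 0.0244% of all probe sets, this one included, had a difference from whole brain this low. Pull-down read 5.77, 6.87 and 9.68 after sleep deprivation and 5.49, 6.61 and 8.39 in controls (lowest, median, highest), against 11.76, 11.38, 11.34 and 11.36 in supernatants 15, 14, 16 and 13. Whole brain read 11.61 to 12.17, so no pull-down array reached another extract. The probe sets 1416921_x_at, 1434799_x_at and 1439375_x_at were lower than whole brain with a difference of −0.95 to −1.66, and none of the 3 was called after centring (−0.14, −0.51 and 0.21). Against supernatant, 1439375_x_at read −0.50 ± 0.22 (adjusted p = 0.038), a call lost without any 1 of the 4 supernatants, pull-down SD 7, 10 or 12, or pull-down control 4 (adjusted p up to 0.118, without supernatant 15). At 1447734_x_at pull-down was higher than supernatant by 0.63 ± 0.15 (0.00053) and read 0.23 ± 0.12 above whole brain (0.070). The span of the pull-down difference from whole brain over the probe sets of 1 gene was 5.18 for Aldoa, 3.83 for Hk1, 3.40 for Slc2a1 and 1.94 for Slc2a3, and 0.23 for Gys1 and 0.18 for Ppp1r3c.

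Ldha, which favours the making of lactate, read close to whole brain in pull-down. Its probe set 1419737_a_at read 10.16 ± 0.36 and 10.06 ± 0.22 in sleep-deprived and control pull-down, 9.66 ± 0.28 in supernatant, and 10.05 ± 0.12 and 10.06 ± 0.12 in sleep-deprived and control whole brain. Pull-down differed from whole brain by 0.05 ± 0.14 (adjusted p = 0.72; 95% interval −0.23 to 0.34), and was called higher (1.21) after centring. It was above supernatant by 0.45 ± 0.18 (0.022), a call lost without supernatant 16 (0.44, 0.0525) or 13 (0.33, 0.125).

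All 6 probe sets of the glycogen genes were below whole brain in pull-down as deposited, and those of Gys1 turned after rescaling. Pygb, the brain phosphorylase, averaged 7.37 ± 0.35 and 7.52 ± 0.43 in sleep-deprived and control pull-down, 8.59 ± 0.25 in supernatant, and 9.48 ± 0.17 and 9.63 ± 0.08 in whole brain. Pull-down was below whole brain with a difference of −2.11 ± 0.15 (adjusted p = 6.1e-12) and below supernatant with a difference of −1.15 ± 0.20 (9.6e-06), though 0.03 and not called against supernatant after centring. Whole brain exceeded supernatant by 0.97 ± 0.21 (0.0021). Pull-down arrays, at 6.91 to 8.05, lay below the supernatants at 8.85, 8.71, 8.53 and 8.27, and these below all 8 whole-brain arrays. Pygm, the muscle isoform that astrocytes also hold, fell by 1.82 ± 0.17 against whole brain (3.5e-10) and was also lower than in supernatant (6.7e-09). Its levels were 3.75 to 5.34 in pull-down, and 6.33, 6.67, 6.48 and 6.64 in supernatants 15, 14, 16 and 13, again without overlap. Whole brain read 6.01 to 6.73, within reach of the supernatants.

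Gys1, which elongates the glycogen chain, fell by 0.93 ± 0.17 at 1416737_at (adjusted p = 1.6e-05) and fell by 0.70 ± 0.16 at 1450196_s_at (0.00029) against whole brain. These directions turned with the scale: the quantile-normalized and the centred difference were 0.21 and 0.22 at 1416737_at, not called, and 1450196_s_at was called higher at 0.34 and 0.45. Ppp1r3c was lower than whole brain with a difference of −1.65 ± 0.25 at 1425631_at (1.3e-06; not called after centring) and of −1.48 ± 0.19 at 1433691_at (1.6e-07; not called after either rescaling). At 1433691_at the supernatants, at 6.78, 6.75, 6.18 and 5.87, were low against whole brain, where no array was under 7.13, by 1.08 ± 0.26 (adjusted p = 0.0061; 0.90 and 0.0536 without supernatant 13). Pull-down there read −0.40 ± 0.25 against supernatant (0.14), but 0.65 and 0.78, both called, after quantile normalization and centring. Over the 24 arrays the genes whose leading probe sets (chosen by highest mean level) ran closest to Ppp1r3c were Gars, Ctss and Mbp (Pearson r = 0.92, 0.91 and 0.90), and those closest to Slc2a1 were Prpf19, Camk4 and Slc38a2 (0.94, 0.93 and 0.93).

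**Figure D3:**
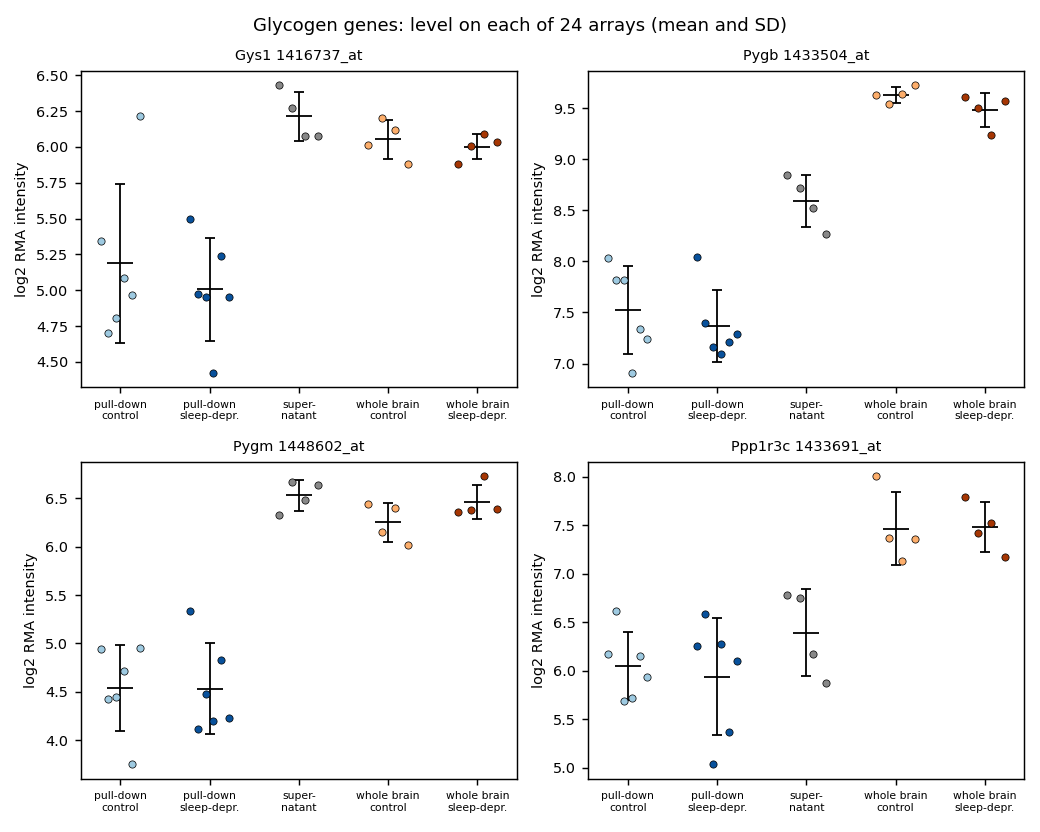
Log2 level of Gys1 (1416737_at), Pygb, Pygm and Ppp1r3c (1433691_at) on each of the 24 arrays by group, with the group mean and SD. Pygb and Pygm are lower on all 12 pull-down arrays than on any other array.

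Markers of cell types were counted in the same comparisons. Set against whole brain, pull-down was lower at 14 of 15 astrocyte markers and higher at 0. Their mean level per array was 7.41 to 8.48 in pull-down, 9.12 to 9.35 in supernatant and 9.51 to 9.67 in whole brain. The endothelial and pericyte markers, 14 measured, were all lower, at 4.80 to 5.70, 6.22 to 6.77 and 7.07 to 7.26. All 11 oligodendrocyte and all 11 microglia markers were lower, as were 7 of 15 neuronal ones, with 3 others higher. Neuronal markers averaged 9.18 to 11.05 in pull-down and 10.68 to 10.83 in whole brain. Of 5 blood markers all were lower, and of 10 skeletal muscle markers 7 were lower and 1 higher. These are counts on the deposited scale, where 72.1% of all genes were lower and 10.2% higher at their leading probe sets. The median difference was −0.68 over all genes. It was −1.38 for astrocyte, −1.83 for endothelial and pericyte, −1.75 for oligodendrocyte and −1.83 for microglia markers. For neuronal, blood and skeletal muscle markers it was −0.35, −2.53 and −0.76. Against supernatant, pull-down was lower at 11 astrocyte, 11 endothelial and pericyte, 9 oligodendrocyte and 10 microglia markers, and higher at 0. Neuronal markers were higher at 7 and lower at 5, blood lower at 5, and muscle higher at 1 and lower at 7. Of all genes 14.4% were higher and 62.1% lower there. Markers were not counted on the rescaled values. The part of the markers in the pull-down differences was not tested. In bulk RNA fewer cells of a type and less RNA per cell cannot be told apart.

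The rest of the pathway moved in shares near those of all genes. Of 76 further genes listed for glucose transport, glycolysis, lactate and glycogen, 68 were measured, and at their leading probe sets pull-down was higher than whole brain at 11 and lower at 47 (10.2% and 72.1% of all genes). Their median was −0.74 against −0.68 for all genes. Against supernatant 12 were higher and 40 lower (14.4% and 62.1%). Counting members, the lists ran from 17 glycolytic enzymes (1 higher, 15 lower) and 11 glucose transporters (1 and 9) through 9 genes of glycogen breakdown (0 and 8) and 9 of its synthesis (3 and 6) to 13 glycogen targeting genes (4 and 6), 15 of lactate and pyruvate handling (1 and 7) and 4 regulators of fructose bisphosphate (1 and 3).

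Whole brain against supernatant compared total RNA of unfixed tissue with what the pull-down left. Of the members 6 rose in whole brain (8.89% of all probe sets) and 1 fell (2.01%), with a median of 0.39 against −0.03. Groups did not overlap at 8 members higher (12.4% of all) and 1 lower (8.65%). The calls were those of Slc2a1, Slc2a3, Pygb and Ppp1r3c given above, and of Slc2a3 1437052_s_at (1.65 ± 0.31, adjusted p = 0.00056) and 1455898_x_at (1.37 ± 0.24, 0.00028).

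Sleep deprivation was then compared with control within each extract. In whole brain, Slc2a1 read higher after sleep deprivation at each of its 3 probe sets, by 1.43- to 1.54-fold, and none passed the adjustment. At 1426599_a_at the sleep-deprived brains 21, 19, 18 and 20 read 11.28, 11.48, 11.29 and 11.30, and controls 23, 24, 22 and 25 read 10.68, 10.84, 10.65 and 10.74. At 1426600_at they read 11.60, 11.87, 11.69 and 11.70 against 11.24, 11.11, 10.95 and 11.08. At 1434773_a_at they read 10.97, 10.77, 10.82 and 10.75 against 10.29, 10.47, 10.28 and 10.22. At each probe set all 4 sleep-deprived brains lay above all 4 controls. The differences were 0.61 ± 0.10 (95% interval 0.38 to 0.84; adjusted p = 0.0771), 0.62 ± 0.11 (0.38 to 0.86; 0.0908) and 0.51 ± 0.11 (0.28 to 0.75; 0.164), in that order. Their p-values ranked 31, 36 and 91 among 45037 probe sets.

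The call on Slc2a1 changed with the fit. With an intensity trend and robust variance prior all 3 probe sets rose (adjusted p = 0.000461, 0.000561 and 0.00493). The first and second rose after centring (0.0235 and 0.0294) and among probe sets with a mean level above the median (0.0146 and 0.0205). These settings called more of all probe sets too. In that order 0.102%, 0.0888% and 0.183% of those tested rose, against 0.0355% in the main fit. When all 24 arrays, pull-downs included, set the spread, none was called. Over the scale, weight and filter settings the differences were 0.57 to 0.69, 0.59 to 0.70 and 0.49 to 0.60. Leaving out 1 brain at a time gave 0.56 to 0.65, 0.57 to 0.67 and 0.47 to 0.56, with adjusted p of 0.123 to 0.374.

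**Figure D4:**
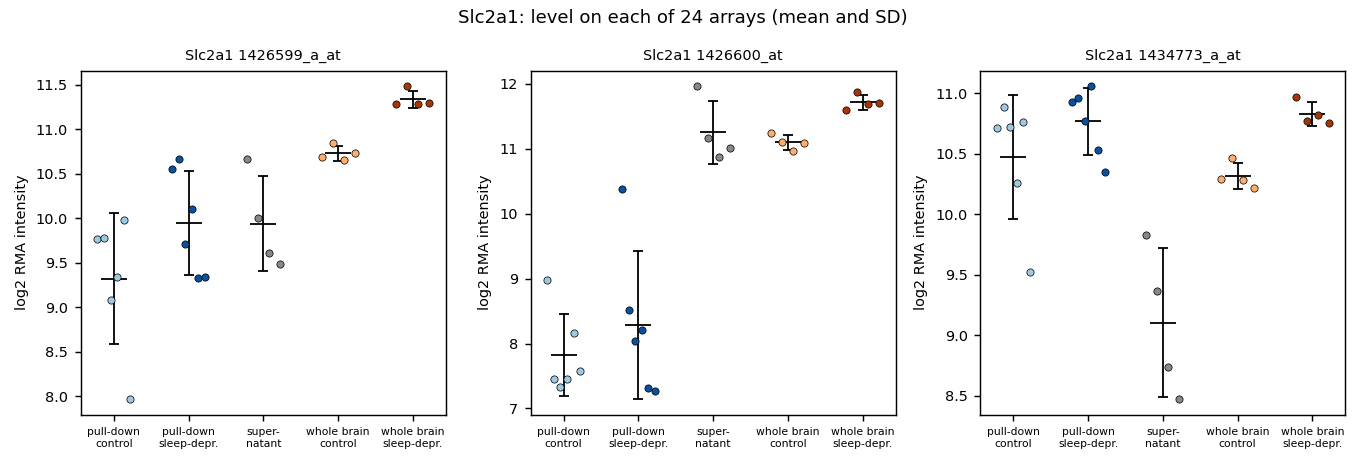
Log2 level of Slc2a1 at its 3 probe sets on each of the 24 arrays by group, with the group mean and SD. The 4 sleep-deprived whole brains lie above the 4 controls at every probe set, and the pull-down groups overlap.

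Slc2a1 stood alone among the members in whole brain by these measures. Over the 22 probe sets 0 passed in either direction in limma (0.0355% of all probe sets rose and 0.0111% fell), and 3 had an unadjusted p under 0.05 (10.9% of all), all of Slc2a1. The median was 0.04 against −0.07 over all probe sets, with 13 above 0 and a range of −0.15 to 0.62. Groups did not overlap at 3 probe sets, all higher (1.75% of all), and at 0 lower (4.25%). Slc2a3 read −0.00 to 0.13, Hk1 0.04 and 0.15, Aldoa −0.05 to 0.09, Ldha −0.01 ± 0.11 and Hk2 −0.15 ± 0.13. Among the glycogen genes Pygm read 0.21 ± 0.13 (adjusted p = 0.57), Pygb −0.15 ± 0.11 (0.64), Gys1 −0.05 and −0.00, and Ppp1r3c 0.10 ± 0.20 and 0.01 ± 0.18. Of the 68 further pathway genes 0 passed (0.0605% of all genes rose and 0.00550% fell), 12 had an unadjusted p under 0.05 (10.7% of all genes), and 31 were above 0 (35.9% of all genes).

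Cell type markers in whole brain were set beside Slc2a1, since endothelial cells and astrocytes hold most of it. Of all genes at their leading probe sets, 35.9% read higher after sleep deprivation, with a median of −0.06. The mean level of the 14 endothelial and pericyte markers was 7.07 to 7.23 after sleep deprivation and 7.17 to 7.26 in controls. Of these 7 read higher and 0 were called, with a median of −0.02. The 15 astrocyte markers averaged 9.63 to 9.67 after sleep deprivation and 9.51 to 9.60 in controls, without overlap. Of these 10 read higher and 0 were called, with a median of 0.10. The 11 oligodendrocyte markers averaged 9.09 to 9.26 after sleep deprivation and 9.27 to 9.45 in controls, also without overlap. Of these 4 read higher and 1 was called, Opalin, a myelin protein (−0.93 ± 0.13, adjusted p = 0.0250), named here after its value was seen, and the median was −0.17. The other lists overlapped between the groups and had 0 calls. Microglia markers averaged 6.83 to 6.96 and 6.93 to 7.06, neuronal markers 10.78 to 10.83 and 10.68 to 10.82, blood markers (5) 6.99 to 7.03 and 6.82 to 7.08, and skeletal muscle markers 4.88 to 5.15 and 5.00 to 5.33, sleep-deprived first. Array-wide values also moved with the condition. Array medians were 6.04 to 6.16 after sleep deprivation and 6.13 to 6.24 in controls, and the 3′ minus 5′ difference of Gapdh was 2.74 to 2.95 and 2.49 to 2.78. The part of the markers and of these array-wide values in the Slc2a1 difference was not tested.

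In pull-down, 0 of 22 members passed in either direction in limma (0.00% of all probe sets in each), and 0 had an unadjusted p under 0.05 (0.955% of all). The median was 0.04 against −0.05, with 12 above 0, and a range of −0.40 to 0.63. Groups were apart at 0 members (0.0400% of all probe sets higher, 0.0178% lower). Slc2a1 1426599_a_at read 9.33, 9.90 and 10.66 (lowest, median, highest) after sleep deprivation and 7.97, 9.55 and 9.98 in controls. All 6 sleep-deprived pull-downs lay above the control mean, while both groups overlapped. That mean was 9.32 with control 11 included, and pull-downs SD 10 and SD 12 read 9.33 each. At 1426600_at 4 of 6, at 1434773_a_at 5 of 6 and at Hk2 0 of 6 lay above the control mean. For 1426599_a_at the difference was 0.63 ± 0.35 (95% interval −0.10 to 1.35), and 0.36 without pull-down control 11. At 1426600_at it was 0.46 ± 0.44 (−0.47 to 1.39), and 0.04 without pull-down SD 1. At 1434773_a_at it was 0.29 ± 0.26 (−0.26 to 0.84), and 0.10 without pull-down control 11. Without pull-down SD 1 and pull-down controls 3 and 11 the differences were 0.28, 0.27 and 0.08. Hk2 read 5.79, 6.36 and 6.59 after sleep deprivation and 6.37, 6.75 and 6.89 in controls, a difference of −0.40 ± 0.23 (−0.89 to 0.08), the lowest of the members. The SE of Hk2 in whole brain was 0.13.

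**Figure D5:**
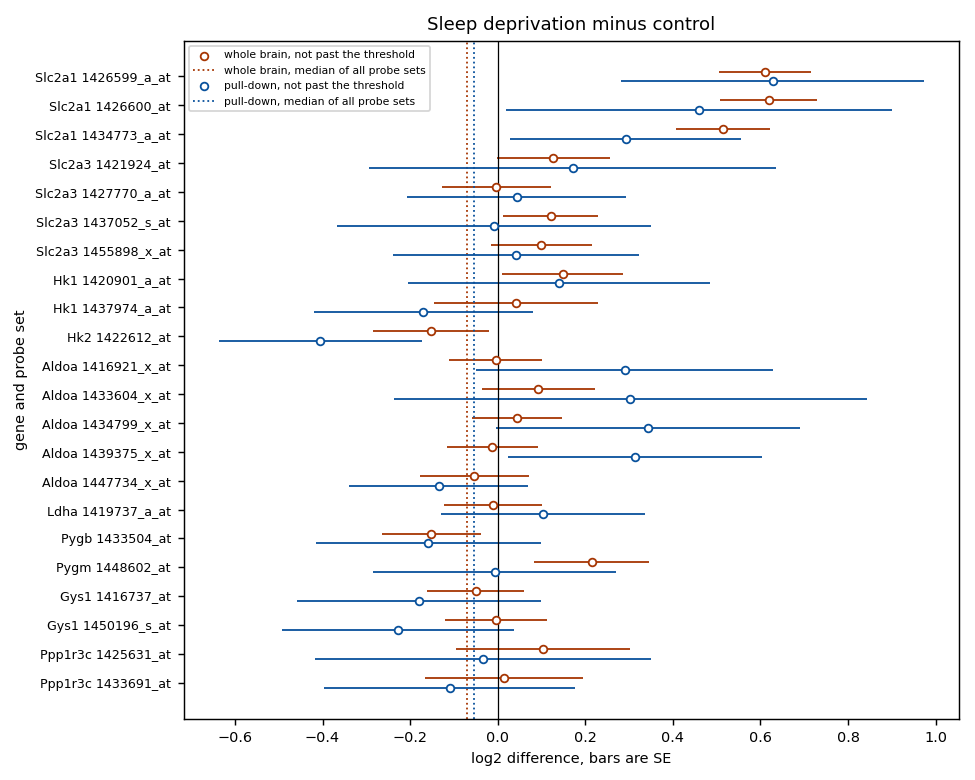
Log2 difference of sleep deprivation from control at each of the 22 probe sets in whole brain (4 against 4 arrays) and in pull-down (6 against 6), with the SE from limma. The 3 Slc2a1 probe sets stand at 0.51 to 0.62 in whole brain, and the pull-down differences have wider errors.

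The difference of the sleep deprivation effect between extracts was tested as an interaction on 20 arrays. For Slc2a1 the effect in pull-down minus that in whole brain was 0.02 ± 0.45, −0.16 ± 0.59 and −0.22 ± 0.33 at 1426599_a_at, 1426600_at and 1434773_a_at. The first has a 95% interval of −0.91 to 0.95, so an effect in pull-down of the size seen in whole brain, or none, could not be distinguished at this precision. Of the 22 members 0 were called and 0 had an unadjusted p under 0.05 (0.338% of all probe sets), with a median of −0.07 against 0.03.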

How the data were processed

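Transcript levels were measured on 24 short-oligonucleotide arrays in 5 groups set from the labels. The authors deposited log2 intensities made with RMA in the affy package, per the submitters' processing notes, with no version given. Values were used as deposited. Of the probe sets, 64 controls were left out, and 1 that names Hk1 with 5 other symbols was not counted as a member. Symbols came from the array annotation of 2016, which gives 34945 of 45037 probe sets 1 symbol, 932 several and 9160 none.

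The linear models of limma 3.58.1 in R 4.3.3 (lmFit, then eBayes) were used, two-sided, with Benjamini-Hochberg adjustment over 45037 probe sets and a threshold of 0.05. Extracts were compared in 1 fit of 24 arrays and 5 groups, pull-down and whole brain each as the equal-weight mean of their 2 groups. Sleep deprivation was fitted on the 8 whole-brain and the 12 pull-down arrays separately, and the interaction on 20. A leading probe set is that of highest mean among kinds _at and _a_at, or among all the gene's probe sets where it has neither (Aldoa). The members, the pathway genes (named only where sleep deprivation passed the threshold) and the marker lists were chosen with earlier results of these data known. No pair of arrays was identical (highest r = 0.991). Scripts were tested on simulated data. The alternatives were quantile normalization, centring, array weights, a trend and robust prior, a filter on low levels, the kinds of probe set, and arrays left out. Arrays have no read depth, and their number limits the precision. Supernatant 13 and pull-down control 13 share a number, as do pull-down SD 3 and pull-down control 3. No other number is shared, and arrays entered the fits with no block.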

Additional observations from a re-analysis of the deposited data

Results flagged for a closer look

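Of 110 groups of 4 or 6 arrays at the 22 probe sets, 11 held an array far from the rest of its group, where chance flags about 1 in 20. Pull-down SD 1 was high at Hk1 1420901_a_at (log2 level 6.39, nearest array 5.16), at Aldoa 1433604_x_at (9.68, nearest 7.03) and at Pygb 1433504_at (8.05, nearest 7.40). Pull-down control 3 was high at Slc2a3 1421924_at (5.97, nearest 4.13). Supernatant 15 was high at Aldoa 1433604_x_at (11.76, nearest 11.38), 1434799_x_at (12.04, nearest 11.77) and 1439375_x_at (12.21, nearest 11.94). Supernatant 13 was low at Aldoa 1447734_x_at (7.09, nearest 7.53). In whole brain, sleep-deprived brain 19 was high at Slc2a1 1426599_a_at (11.48, nearest 11.30), sleep-deprived brain 18 was high at Pygm 1448602_at (6.73, nearest 6.39), and control brain 24 was low at Slc2a3 1455898_x_at (9.39, nearest 9.62).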

How the results depend on the processing

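Of 932 member values compared with the main fit under other settings, 826 kept direction and call. Of the rest, 10 lost the call, 23 gained one, 20 reversed, and 53 changed sign while called in neither. Part of this agreement was built in. The setting of kinds _at and _a_at alone reused the main fit, so its values could not change. The trend and robust prior, the filter on low levels and the fit of all arrays left the differences unaltered. Only the call could change there. With each array left out, 2316 of 2464 kept both, 21 lost the call, 2 gained one, 0 reversed and 125 changed sign uncalled. Differences between groups without the array left out were also unaltered, so only their call could change. Counts of called members moved as follows. With kinds _at and _a_at alone (14 probe sets, so fewer members), 11 fell against whole brain (76.3% of all probe sets). Against supernatant 3 rose and 9 fell (11.2% and 67.4%). Quantile normalization gave 4 higher than whole brain (32.3% of all probe sets). Centring gave 7 higher and 7 lower than whole brain (52.0% and 18.3% of all probe sets) and 6 lower than supernatant (18.8%). It gave 0 lower in whole brain than in supernatant (3.91%), and 2 higher after sleep deprivation in whole brain (0.0888%). Array weights gave 12 higher and 2 lower in whole brain than in supernatant, where 17.5% and 13.3% of all probe sets were called (8.89% and 2.01% without weights). The trend and robust prior gave 3 higher after sleep deprivation in whole brain (0.102% of all probe sets, against 0.0355% in the main fit). The filter on low levels left 16 members between extracts, 19 for sleep deprivation in whole brain and 17 in pull-down. Between extracts it left out Slc2a3 1421924_at and 1427770_a_at, Pygm 1448602_at, Gys1 1416737_at and 1450196_s_at, and Ppp1r3c 1425631_at. The filter gave 11 lower than whole brain (69.1% of all probe sets kept) and 8 lower than supernatant (61.2%). It gave 0 lower in whole brain than in supernatant (3.73%), and 2 higher after sleep deprivation in whole brain (0.183%). Leaving out 1 array gave 0 to 1 members higher than whole brain, with Aldoa 1447734_x_at called without pull-down control 4 (0.25, adjusted p = 0.0489) and Hk1 1437974_a_at without sleep-deprived brain 21 (0.35, 0.0463), and 0 to 1 lower in whole brain than in supernatant. It gave 4 to 6 higher and 12 to 14 lower than supernatant in pull-down, and 4 to 6 higher in whole brain than in supernatant, with the lowest count of higher members, 4, without supernatant 13 in both. Reversed against whole brain after quantile normalization were Gys1 1416737_at (0.21), Gys1 1450196_s_at (0.34) and Hk2 1422612_at (0.66), and after centring Gys1 1416737_at (0.22), Gys1 1450196_s_at (0.45), Hk2 1422612_at (0.70), Slc2a3 1437052_s_at (0.30) and Aldoa 1439375_x_at (0.21). Reversed against supernatant after quantile normalization were Gys1 1416737_at (0.051), Gys1 1450196_s_at (0.0085), Hk2 1422612_at (0.60) and Ppp1r3c 1433691_at (0.65), and after centring Gys1 1416737_at (0.058), Gys1 1450196_s_at (0.070), Hk2 1422612_at (0.70), Pygb 1433504_at (0.030), Ppp1r3c 1433691_at (0.78), Aldoa 1416921_x_at (0.27) and Aldoa 1439375_x_at (0.67). Slc2a3 1455898_x_at went to 0.97 against whole brain after centring. The cause was not tested beyond the shift of all probe sets by these scalings. The setting without 3 pull-down arrays was added after seeing the data. No paired analysis was possible because the groups compared share fewer than 2 replicate numbers.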
